A study of Mus musculus with 6 samples.

Results

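A set of 10 oligodendrocyte lineage genes was followed in the hippocampus of mice after bilateral carotid artery stenosis (BCAS), a surgical model of chronic cerebral hypoperfusion. The 10 genes were chosen by symbol: Pdgfra, Cspg4, Lhfpl3, Olig1, Olig2, Sox10, Nkx2-2, Gpr17, Bcas1 and Enpp6. All 10 were found among the 54752 genes of the count tables, each under 1 Ensembl identifier, and all 10 passed the filter on low counts. Each of the 6 libraries came from 1 right hippocampus, taken whole, and the groups held 3 mice each. All mice were wild-type C57BL/6 males (C57BL/6 J in the study's methods) labelled with a time of 14 weeks, and the tissue was taken 3 weeks after surgery. In the BCAS group both common carotid arteries were wrapped in microcoils, with the narrower coil on the right, which is the sampled side. Sham mice had the same operation with no coil. No genotype or drug separated the groups.

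Oligodendrocytes wrap axons in myelin, and in the adult brain they arise from oligodendrocyte precursor cells, which are spread through gray and white matter and keep dividing. A precursor carries the PDGF receptor alpha (Pdgfra) and the proteoglycan NG2 (Cspg4). As it differentiates it loses both, passes through a premyelinating stage marked by Gpr17, Bcas1 and Enpp6, and then makes myelin proteins. The transcription factors Olig1, Olig2 and Sox10 are present from the precursor to the mature cell, while Nkx2-2 is highest around the start of differentiation. The gene Bcas1 is named after a sequence amplified in breast carcinoma, and its name has no link to the abbreviation of the surgery.

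The libraries held 29652456 to 35607098 counts, which are counts of single reads since the mates of a pair were counted separately. Levels are given as CPM, the gene's count relative to a library total scaled by edgeR's TMM method, and 3 counts, taken as the limit of detection, equal 0.0875 to 0.0995 CPM. Markers of the hippocampus were present in every library, with a summed level of 10 regional genes of 1202 to 1261 CPM in sham mice and 634 to 921 CPM in BCAS mice, and 6 of the 10 were lower in BCAS mice. BCAS mouse 3 stood apart, with the highest level of the 10 lineage genes together (797 CPM against 634 and 640 CPM in the other BCAS mice), so values without it are given beside several of the results.

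Of the 10 genes, Cspg4, Gpr17 and Bcas1 rose in BCAS mice, and no gene fell. The rises were moderate, with log2 fold changes of 0.73, 0.53 and 0.50, so none of the 10 reached the log2 fold change above 1 that the study required of its differentially expressed genes (DEGs). The question was which stages of the lineage differ in RNA level between hypoperfused and control hippocampus. It was tested with edgeR's quasi-likelihood test over 18617 genes, and a gene was called at a Benjamini-Hochberg adjusted P under 0.05. Across all tested genes, 31.3% were called, 18% were called higher and 13.2% lower, and 8.47% were called higher with a log2 fold change above 1. Beside these shares, 3 of 10 called higher is a small count. Before adjustment, 5 of the 10 genes had a P under 0.05, all of them higher, and 0 had such a P with a lower level, against 22.9% of all tested genes higher and 19.4% lower at that P. DESeq2 and limma-voom also called 3 of the 10 higher and 0 lower. The median log2 fold change was 0.35 over the 10 genes and 0.018 over all tested genes. In bulk tissue, more cells of a type and more RNA per cell cannot be told apart.

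**Figure D1:**
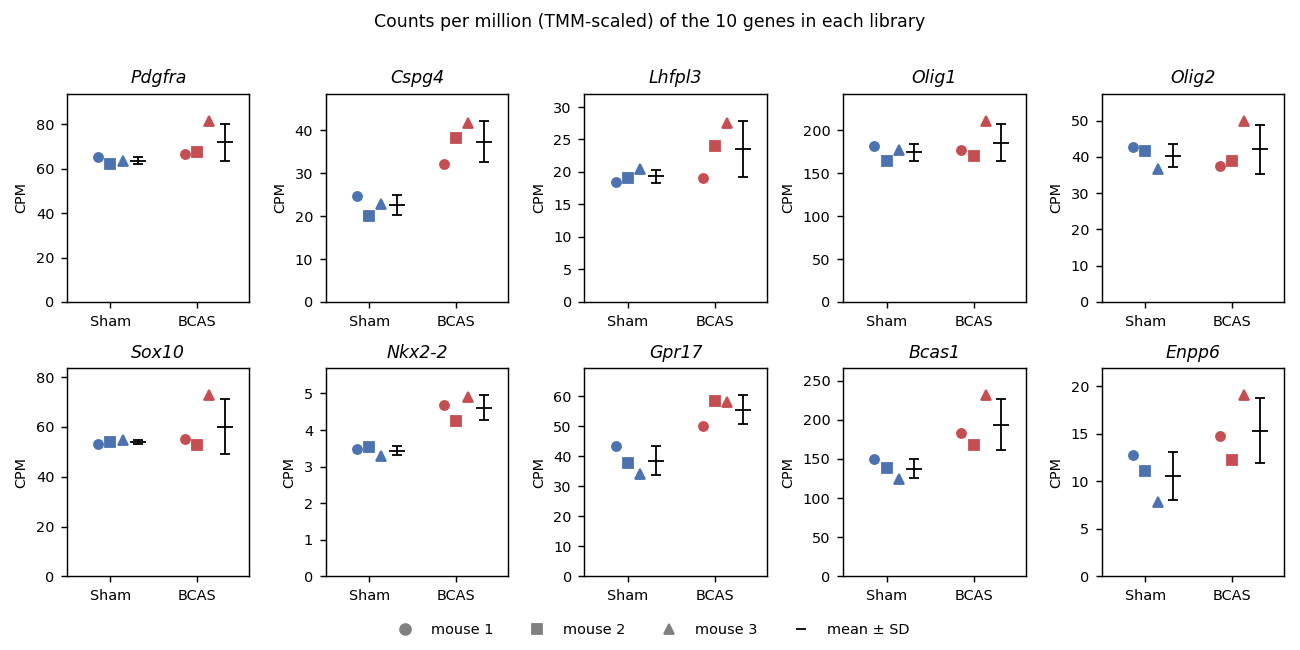
Level of each of the 10 genes in CPM (vertical axes, each from 0) in the 3 sham and 3 BCAS libraries, with 1 marker per mouse and the mean and SD at the side. Cspg4, Pdgfra, Nkx2-2, Gpr17 and Bcas1 have all BCAS mice above all sham mice, and BCAS mouse 3 is the highest library for 9 of the 10 genes.

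The precursor surface genes did not move by the same amount. Pdgfra encodes the receptor through which PDGF-A drives precursor division and survival. It lies on chromosome 5 of mm10 (75152292 to 75198215, plus strand). Its level was 65.4, 62.1 and 63.3 CPM in sham mice 1 to 3 and 66.6, 67.5 and 81.4 CPM in BCAS mice 1 to 3. The groups did not overlap, but BCAS mice 1 and 2 lay only just above the sham mice. The means were 63.6 ± 1.64 CPM in sham mice and 71.8 ± 8.32 CPM in BCAS mice (n = 3 mice a group, SD). The log2 fold change was 0.18 with a 95% interval of -0.03 to 0.38 (edgeR adjusted P = 0.174). Without BCAS mouse 3 the log2 fold change of Pdgfra was 0.071.

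Cspg4 showed the largest and most certain change of the 10 genes. It encodes NG2, a transmembrane proteoglycan of precursors that pericytes also make, and lies on chromosome 9 (56865033 to 56899870, plus strand). Its level was 24.6, 20.0 and 22.9 CPM in sham mice 1 to 3 and 32.2, 38.1 and 41.7 CPM in BCAS mice 1 to 3. Every BCAS mouse was well above every sham mouse. Sham mice averaged 22.5 ± 2.34 CPM and BCAS mice 37.3 ± 4.79 CPM (n = 3 mice a group, SD), a 1.66-fold rise (edgeR adjusted P = 0.00269, log2 fold change 0.73 ± 0.12, standard error). Omitting any 1 of the 6 mice gave log2 fold changes of 0.64 to 0.83, and the call held under all 14 alternatives tried. Pericyte markers moved in the same direction: of 10 pericyte and smooth muscle genes, 6 were higher and 0 lower in BCAS mice (0 lower also before adjustment, by edgeR, and with DESeq2 and limma-voom), and their summed level was 313 to 383 CPM in sham and 429 to 486 CPM in BCAS mice. None of these 10 markers was at 0. The log2 ratio of Cspg4 to Pdgfrb, the PDGF receptor of pericytes, was -0.65 ± 0.14 in sham and -0.57 ± 0.11 in BCAS mice (SD, n = 3 each) and overlapped between the groups. Relative to Notch3, another pericyte and smooth muscle gene, Cspg4 also overlapped, at 0.37 ± 0.19 and 0.23 ± 0.30. Pdgfrb and Notch3 are among the markers that rose. Relative to Rgs5, the most abundant of the 10 markers and not called (log2 fold change 0.14, adjusted P = 0.186), Cspg4 was higher in every BCAS mouse, at -2.73 ± 0.15 in sham and -2.13 ± 0.25 in BCAS mice (SD, n = 3 each). Against the 10 markers singly, the ratio of Cspg4 overlapped between the groups for 8 and was higher in all BCAS mice for 2, Rgs5 and Higd1b. Among the 8, the group difference was -0.28 to 0.084 for the 6 markers that rose. It was 0.41 for Tagln, which had 8 to 17 counts, and 1.04 for Acta2, whose sham mice were widely spread (SD 0.80). These ratios were chosen after the values were seen, and the part of pericytes in the rise of Cspg4 was not tested.

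Lhfpl3, a tetraspan membrane protein gene with RNA enriched in precursors, lies on chromosome 5 (22746059 to 23275597, plus strand). Its sham levels were 18.5, 19.1 and 20.4 CPM, and its BCAS levels were 19.0, 24.1 and 27.5 CPM. BCAS mouse 1 lay inside the sham range while the other BCAS mice lay above it. The log2 fold change of 0.28 had a 95% interval of -0.03 to 0.60 (edgeR adjusted P = 0.157). Without BCAS mouse 1 it was 0.41 and passed (adjusted P = 0.0349), and without BCAS mouse 3 it was 0.15 (adjusted P = 0.472). Part of its exons, 17.6% of their bases, is also annotated to A930003O13Rik on the opposite strand, and the counting ignored strand, so reads there could not be assigned.

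The bases before the start of Pdgfra and Cspg4 are shown because these genes mark the same cell yet differed in their change. RefSeq promoter sequences (GRCm38.p6, the assembly of mm10) were found for 6 of the 10 genes. The windows end before the first annotated exon base, run 5′ to 3′ on the plus strand, and cover chr5:75152001-75152250 for Pdgfra and chr9:56864854-56865032 for Cspg4. Capitals mark matches to 4 motifs searched on both strands, ACAAAG and ACAATG (letters of SOX factor sites) and CAGCTG and CAGATG (E-box letters bound by factors of the Olig type). CAGCTG reads the same on both strands, and no motif overlaps another in these windows.
Pdgfra: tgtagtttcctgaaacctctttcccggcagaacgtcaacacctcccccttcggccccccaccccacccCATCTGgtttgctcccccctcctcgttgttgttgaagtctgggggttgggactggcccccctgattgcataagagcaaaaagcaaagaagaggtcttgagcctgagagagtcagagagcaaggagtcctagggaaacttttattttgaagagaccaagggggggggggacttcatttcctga
Cspg4: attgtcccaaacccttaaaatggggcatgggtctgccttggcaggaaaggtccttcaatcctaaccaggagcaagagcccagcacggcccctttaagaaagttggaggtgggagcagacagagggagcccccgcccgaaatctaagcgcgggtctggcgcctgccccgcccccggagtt
The Pdgfra window holds 1 match, to CAGATG read on the opposite strand, 182 to 177 bases before the RefSeq start. The Cspg4 window holds none, also over its full 250 bases. Among all 32851 promoters of the table, 14.4% hold CAGATG, 13% CAGCTG, 16.5% ACAAAG and 10.7% ACAATG in the same 250 bases. At least 1 of the 4 motifs is held by 44.1% of them. These matches are letters only.

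The Enpp6 promoter is added because Enpp6 is the premyelinating gene whose window could be read and which holds a SOX-type match. It covers chr8:46986637-46986886 on the plus strand, with ACAATG at 219 to 214 bases before the start.
Enpp6: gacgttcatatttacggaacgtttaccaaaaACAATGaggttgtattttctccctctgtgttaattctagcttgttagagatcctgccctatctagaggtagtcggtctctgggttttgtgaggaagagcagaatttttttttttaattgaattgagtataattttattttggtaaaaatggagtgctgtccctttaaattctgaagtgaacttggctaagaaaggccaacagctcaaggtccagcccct

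None of the 4 lineage transcription factors was called with edgeR, DESeq2 or limma-voom. Before adjustment, edgeR gave Nkx2-2 a P of 0.034 and each of the others a P above 0.2. Olig1 and Olig2, paralogous basic helix-loop-helix factors, lie 41094 bases apart on chromosome 16, Olig2 from 91225457 to 91228677 and Olig1 from 91269772 to 91271933, both on the plus strand. Olig2, which specifies the lineage, had 42.7, 41.6 and 36.7 CPM in sham mice and 37.4, 39.0 and 49.9 CPM in BCAS mice 1 to 3. BCAS mice 1 and 2 lay inside the sham range and BCAS mouse 3 above it. Its log2 fold change was 0.062 with a 95% interval of -0.21 to 0.34 (edgeR adjusted P = 0.736), and it was -0.083 without BCAS mouse 3 and -0.004 without sham mouse 3. Olig1, which acts in maturation and repair, had 182, 164 and 177 CPM in sham mice and 177, 170 and 211 CPM in BCAS mice. It showed the same arrangement, with only BCAS mouse 3 above the sham mice. Its log2 fold change was 0.091 with a 95% interval of -0.13 to 0.31 (edgeR adjusted P = 0.512), and -0.014 without BCAS mouse 3.

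Sox10, the SOX factor that activates myelin genes, lies on chromosome 15 (79154908 to 79165240, minus strand). The sham mice were tightly grouped at 53.2, 54.2 and 54.9 CPM, and the BCAS mice had 55.0, 52.7 and 72.7 CPM. A single library, BCAS mouse 3, separated the group means. The log2 fold change of 0.15 had a 95% interval of -0.12 to 0.42 (edgeR adjusted P = 0.366), and it was -0.012 without BCAS mouse 3. The intervals of Olig1, Olig2 and Sox10 all leave out a log2 fold change of 0.5 in either direction.

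Nkx2-2, a homeodomain factor that represses Pdgfra and promotes differentiation, was the scarcest of the 10 genes in CPM, with only 113 to 118 counts in sham and 128 to 153 counts in BCAS libraries. It lies on chromosome 2 (147177546 to 147194243, minus strand). Its level was 3.48, 3.53 and 3.29 CPM in sham mice and 4.68, 4.24 and 4.91 CPM in BCAS mice 1 to 3. The groups did not overlap. With edgeR its log2 fold change was 0.42 ± 0.17 (standard error, adjusted P = 0.0889), so the rise did not pass after adjustment. Leaving out each mouse gave 0.37 to 0.47, so no single library set its size. Of its exon bases, 9.67% are shared with the antisense gene Nkx2-2os, which had 7 to 33 counts per library.

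Among the premyelinating genes, Gpr17 and Bcas1 rose and Enpp6 had a similar but less certain change. Gpr17 encodes a G protein-coupled receptor that appears briefly in committed precursors and holds back their final maturation. It lies on chromosome 18 (31942997 to 31949636, minus strand). Its level was 43.6, 37.7 and 34.0 CPM in sham mice 1 to 3 and 50.1, 58.4 and 58.1 CPM in BCAS mice 1 to 3. All BCAS mice were above all sham mice. The group means were 38.4 ± 4.81 CPM in sham and 55.5 ± 4.73 CPM in BCAS mice (n = 3 mice a group, SD), a 1.44-fold rise (edgeR adjusted P = 0.00686, log2 fold change 0.53 ± 0.11, standard error). The call held under all 14 alternatives, with log2 fold changes of 0.45 to 0.63 when each mouse was left out. Gpr17 was the gene of the 10 for which BCAS mouse 3 was not the highest library. It shares 188 exon bases with Lims2 on the opposite strand, which had 357 to 489 counts per library against 1167 to 1813 for Gpr17.

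Bcas1 encodes a protein of the premyelinating and early myelinating cell and lies on chromosome 2 (170346991 to 170427845, minus strand). Its level was 149, 138 and 125 CPM in sham mice 1 to 3 and 183, 168 and 231 CPM in BCAS mice 1 to 3. The groups did not overlap, and BCAS mouse 3 was far above the other BCAS mice. Its mean was 137.5 ± 12.3 CPM in sham and 194 ± 33.0 CPM in BCAS mice (n = 3 mice a group, SD), a 1.41-fold rise (edgeR adjusted P = 0.0161, log2 fold change 0.50 ± 0.12, standard error). Without sham mouse 2 the adjusted P was 0.0533 and without sham mouse 3 it was 0.0743, so the call was lost while the direction stayed. Without BCAS mouse 3 the call held, with a log2 fold change of 0.35 that was the lowest of all alternatives. Of the exon bases of Bcas1, 12.6% are shared with 2 antisense genes. These had 0 to 8 counts (Bcas1os1) and 7 to 20 counts (Bcas1os2) per library.

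Enpp6, a choline-specific phosphodiesterase of newly forming oligodendrocytes, lies on chromosome 8 (46986887 to 47096762, plus strand). Its level was 12.7, 11.1 and 7.84 CPM in sham mice and 14.8, 12.2 and 19.0 CPM in BCAS mice 1 to 3. BCAS mouse 2 lay inside the sham range, and the sham mice were themselves widely spread. Its log2 fold change of 0.54 was as large as that of Gpr17, but the standard error was 0.21 (edgeR adjusted P = 0.0847). It passed without BCAS mouse 2 (adjusted P = 0.0376) and with every gene of at least 1 count kept (adjusted P = 0.0299). The log2 fold change of Enpp6 fell to 0.35 without BCAS mouse 3 (adjusted P = 0.279) and to 0.36 without sham mouse 3 (adjusted P = 0.242).

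**Figure D2:**
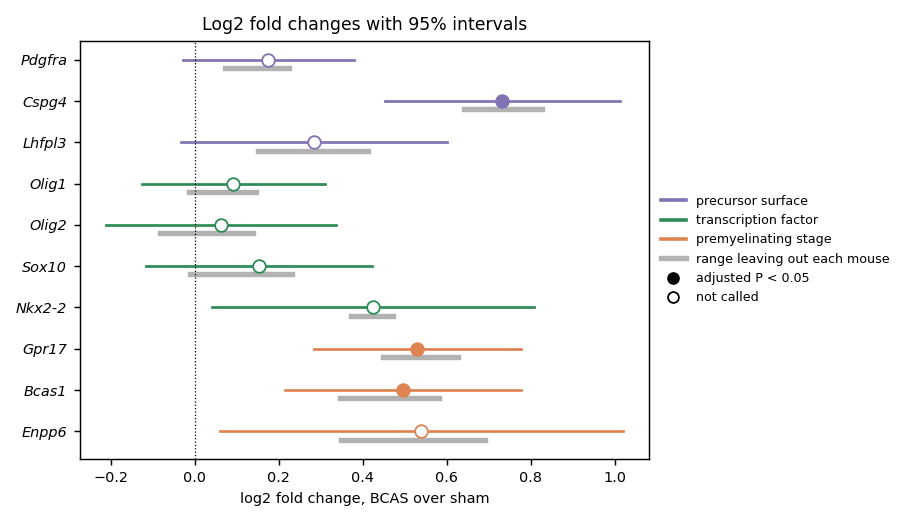
Log2 fold change of BCAS over sham mice (horizontal axis) for the 10 genes from edgeR, colored by role, with unadjusted 95% intervals as lines and the range over fits that leave out 1 mouse as gray bars below. Filled circles are the 3 called genes, Cspg4, Gpr17 and Bcas1, and the intervals of Enpp6 and Nkx2-2 exclude 0 although neither passed after adjustment.

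Groups without overlap were seen for 5 of the 10 genes (Pdgfra, Cspg4, Nkx2-2, Gpr17 and Bcas1), all with BCAS mice above. Among all tested genes, 48% had groups without overlap, 25.3% with BCAS mice above and 22.7% with BCAS mice below. All 10 fitted changes were above 0. Without BCAS mouse 3, 7 of the 10 were above 0, the median fell to 0.25, and the called genes were the same Cspg4, Gpr17 and Bcas1.

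Levels between genes were compared per length, as CPM divided by the exon length in kilobases (RPKM). In sham mice the order was Olig1 (80.7 ± 4.40 RPKM), Bcas1 (36.4 ± 3.26), Sox10 (17.7 ± 0.28), Olig2 (15.9 ± 1.25), Gpr17 (7.40 ± 0.93), Pdgfra (6.35 ± 0.16), Lhfpl3 (6.02 ± 0.31), Cspg4 (1.88 ± 0.20), Enpp6 (1.65 ± 0.39) and Nkx2-2 (1.20 ± 0.044; SD, n = 3 throughout). Pdgfra and Lhfpl3 overlapped in their ranges, as did Cspg4 with Enpp6 and Enpp6 with Nkx2-2, and the other neighbors did not. The order in BCAS mice was nearly the same, with Lhfpl3 (7.33 ± 1.33 RPKM) and Pdgfra (7.16 ± 0.83) exchanged but overlapping, and with Sox10 (19.7 ± 3.58) and Olig2 (16.6 ± 2.68) now overlapping. Per length, the RNA of the receptor Pdgfra was 3.37 times that of Cspg4 in sham mice and 2.29 times in BCAS mice, from the group means. The order by CPM was different for the long genes, with only Olig1 and Bcas1 above Pdgfra in both groups.

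Ratios of counts within a library do not depend on scaling. They were computed for 12 pairs of genes, with an exact two-sided permutation test of 3 against 3 mice, which cannot give a P under 0.1 (the smallest observed after adjustment over the pairs was 0.2), so they are described by their values. The ratio of Pdgfra to Cspg4 separated the groups, at log2 values of 1.41, 1.64 and 1.47 in sham mice and 1.05, 0.82 and 0.97 in BCAS mice. Cspg4 thus moved away from the other precursor receptor in every BCAS mouse. By contrast, Pdgfra to Sox10 was 0.23 ± 0.055 in sham and 0.27 ± 0.097 in BCAS mice (SD, n = 3 each), and Olig1 to Olig2 was 2.12 ± 0.15 and 2.15 ± 0.084. These ratios of precursor receptor and transcription factors overlapped between the groups.

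Gpr17 shifted against the precursor receptor, while Enpp6 did not separate the groups. The log2 ratio of Gpr17 to Pdgfra was -0.59, -0.72 and -0.90 in sham mice and -0.41, -0.21 and -0.49 in BCAS mice, with no overlap. For Enpp6 to Pdgfra it was -2.36, -2.48 and -3.01 in sham mice and -2.17, -2.47 and -2.10 in BCAS mice, with overlap. Relative to Sox10, Bcas1 was higher in every BCAS mouse (1.73, 1.67 and 1.67) than in every sham mouse (1.49, 1.35 and 1.19), while Gpr17 and Enpp6 overlapped. The clearest of these shifts was Bcas1 against Mog, a gene of mature myelin, with 1.09, 1.03 and 1.05 in sham mice and 1.57, 1.69 and 1.54 in BCAS mice. It depended on the myelin gene taken. The group difference was 0.54 against Mog but only 0.081 against Mbp, a pair added after the values were seen. Of the 12 pairs, 6 had no overlap.

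**Figure D3:**
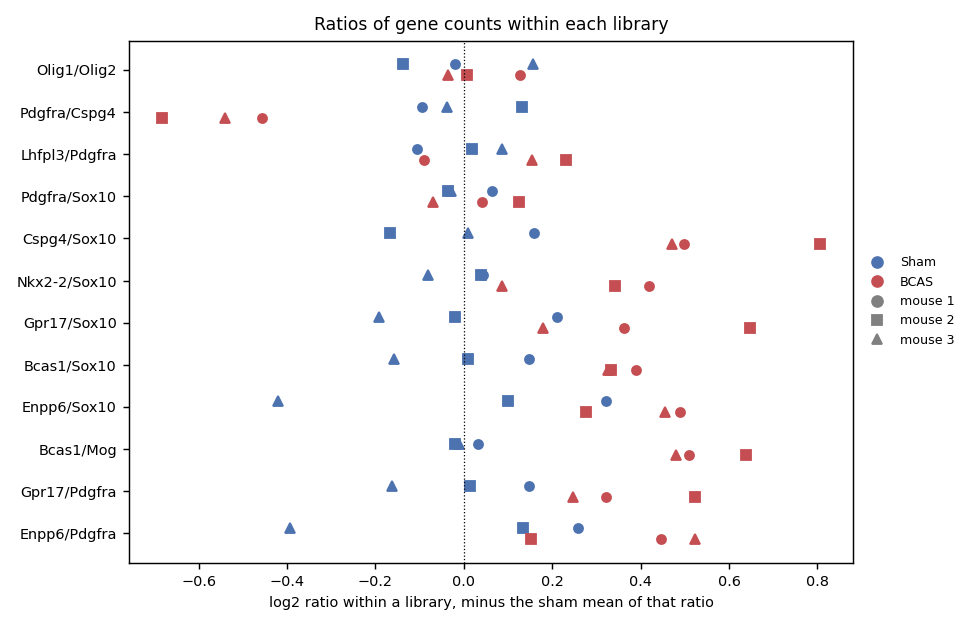
Log2 ratio of the counts of 2 genes within each library, minus the sham mean of that ratio (horizontal axis), for the 12 pairs, with 1 marker per mouse. The 6 pairs without overlap between sham and BCAS mice are Pdgfra/Cspg4, Cspg4/Sox10, Nkx2-2/Sox10, Bcas1/Sox10, Bcas1/Mog and Gpr17/Pdgfra.

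Other genes of the lineage were read from the same fit. Among 12 further precursor genes, 4 were higher and 1 was lower, and their median log2 fold change was 0.14. Matn4, a matrilin of the extracellular matrix, rose from 9.43 ± 1.26 to 20.1 ± 4.70 CPM (SD, n = 3 each; log2 fold change 1.09, edgeR adjusted P = 0.00237, and 0.88 without BCAS mouse 3). Ptprz1, a receptor phosphatase that holds precursors undifferentiated, rose by 0.42 on the log2 scale (adjusted P = 0.00645), and astrocytes also make it. Vcan, the proteoglycan versican, rose by 0.45 (adjusted P = 0.0292) but passed in only 9 of 14 alternatives, failing among others without sham mouse 1, 2 or 3 or BCAS mouse 3 (0.107 was its highest adjusted P). Tnr, the matrix protein tenascin-R, fell by 0.40 (adjusted P = 0.0121). The 4 higher genes became 2 without sham mouse 1 or sham mouse 2, and the 1 lower gene became 2 without BCAS mouse 1 or BCAS mouse 2 and with DESeq2 or RLE factors.

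Genes of committed and newly formed oligodendrocytes moved in both directions. Of 12 tested genes, 4 were higher and 3 lower, with a median log2 fold change of -0.082. Itpr2, an intracellular calcium channel, rose from 23.8 ± 2.80 to 49.3 ± 3.30 CPM (log2 fold change 1.05, edgeR adjusted P = 1.63e-04), and Tns3, a focal adhesion protein, from 74.0 ± 6.45 to 149.2 ± 14.7 CPM (1.01, adjusted P = 1.28e-04; SD, n = 3 each). The morphogen Bmp4 rose by 1.00 (adjusted P = 0.0176), and this call was lost without sham mouse 1 or sham mouse 2 (highest adjusted P 0.0716). The sulfotransferase gene Ust fell by 0.75 on the log2 scale (adjusted P = 0.00271). Whether oligodendrocytes or other cells of the tissue carried these changes was not tested.

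No mature myelin gene was called with edgeR. Of 18 genes, 0 passed after adjustment, 1 had an unadjusted P under 0.05 (Mbp, myelin basic protein), and 1 passed with DESeq2, again Mbp, and 0 with limma-voom. Mbp also passed without BCAS mouse 2 and with every gene of at least 1 count kept, and under that filter or without BCAS mouse 3 a single gene was lower (Mal, a proteolipid of myelin). The median log2 fold change of the 18 was 0.023. Mbp, the most abundant of them, had 3189, 2939 and 2658 CPM in sham mice and 3651, 3316 and 4784 CPM in BCAS mice, with no overlap and a log2 fold change of 0.42 (edgeR adjusted P = 0.101), which was 0.25 without BCAS mouse 3 (adjusted P = 0.178). Mog had 66.1 ± 5.07 CPM in sham and 64.4 ± 14.0 CPM in BCAS mice (SD, n = 3 each; log2 fold change -0.036, adjusted P = 0.875, and -0.22 without BCAS mouse 3, adjusted P = 0.156). The summed level of the 18 genes was 5940 to 7267 CPM in sham mice and 6571, 7290 and 9926 CPM in BCAS mice 2, 1 and 3, so BCAS mouse 3 was also the highest library for myelin RNA.

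Regulators of differentiation were described in 2 lists. Of 12 that promote it, 2 were higher (1 without sham mouse 1, sham mouse 2 or BCAS mouse 3) and 2 lower, with a median log2 fold change of 0.19. The chromatin remodeler Chd7 rose by 0.85 (edgeR adjusted P = 0.00309). Zeb2 fell by 0.50 (adjusted P = 0.00444) and the histone deacetylase Hdac2 by 0.38 (adjusted P = 0.00532), genes that neurons also express. Myrf, which switches on myelin genes and was chosen for its role after the values were seen, had a log2 fold change of 0.25 (adjusted P = 0.174). That of Myrf was 0.10 without BCAS mouse 3 (adjusted P = 0.541), and it was 0.35 and passed without BCAS mouse 2 (adjusted P = 0.0445).

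Of 12 regulators that restrain differentiation, 6 were higher and 1 was lower (2 without BCAS mouse 3), with a median of 0.27. Id3 rose from 39.9 ± 4.20 to 77.0 ± 10.9 CPM (SD, n = 3 each; log2 fold change 0.95, edgeR adjusted P = 5.68e-04), and Id1 by 0.68 (adjusted P = 0.0045). Both encode partners that block basic helix-loop-helix factors. The receptor gene Notch1 rose by 0.86 (adjusted P = 0.00235). Lingo1, a receptor component that is abundant in neurons, fell by 0.73 (adjusted P = 0.00761). Astrocytes and vessels also express Id and Notch genes, and which cells carried these changes was not tested.

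Among growth factors and receptors that act on precursors, the called genes were all higher. Of 16 tested genes, 7 were higher, 9 were not called and 0 were lower, also 0 before adjustment and 0 with DESeq2 and limma-voom, with a median log2 fold change of 0.26. Igf1, a survival factor for the lineage, rose from 9.23 ± 0.78 to 33.2 ± 9.50 CPM (log2 fold change 1.85, edgeR adjusted P = 2.89e-04), and the mitogen Fgf2 from 7.62 ± 1.09 to 19.0 ± 0.59 CPM (1.32, adjusted P = 1.51e-04; SD, n = 3 each). The chemokine receptor gene Cxcr4 rose by 1.74 (adjusted P = 0.00111). Pdgfd rose by 0.88 (adjusted P = 0.0259), with the groups overlapping and the call lost in 5 of 14 alternatives, among them leaving out sham mouse 1, sham mouse 3, BCAS mouse 1 or BCAS mouse 3 (highest adjusted P 0.103). Pdgfa, the main ligand of Pdgfra and named for that role after the values were seen, had 30.7 ± 3.91 CPM in sham and 34.3 ± 2.04 CPM in BCAS mice (SD, n = 3 each; log2 fold change 0.16, adjusted P = 0.304, and 0.067 without sham mouse 1). Igf1 and Cxcr4 are also genes of microglia, whose markers rose in the same libraries. Pdgfrb and Fgfr3, 2 of the 7 higher genes, are also counted below among the pericyte and the astrocyte markers. Which cells carried the rises of this list was not tested.

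Cell cycle genes rose broadly, with 9 of 10 higher (5 without sham mouse 3) and a median log2 fold change of 1.66. Cdk1, which drives entry into mitosis, rose from 0.38 ± 0.047 to 4.31 ± 1.40 CPM (SD, n = 3 each; log2 fold change 3.48, edgeR adjusted P = 1.14e-04), and Top2a by 2.36 (adjusted P = 0.00391). The increases were 1.88 for Ccnb1 (adjusted P = 0.0133) and 1.69 for Mki67 (adjusted P = 0.0122), and both calls were lost without sham mouse 1 or sham mouse 3 (highest adjusted P 0.0523 and 0.0582). Without BCAS mouse 3 the log2 fold changes were 1.78 for Top2a, 1.31 for Ccnb1 and 1.14 for Mki67, and these calls held. Precursors divide in the adult brain, as do activated microglia, and these libraries do not separate them. The summed level of the 10 cell cycle genes was 19.4 to 21.0 CPM in sham mice and 43.5, 35.8 and 75.3 CPM in BCAS mice 1 to 3.

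**Figure D4:**
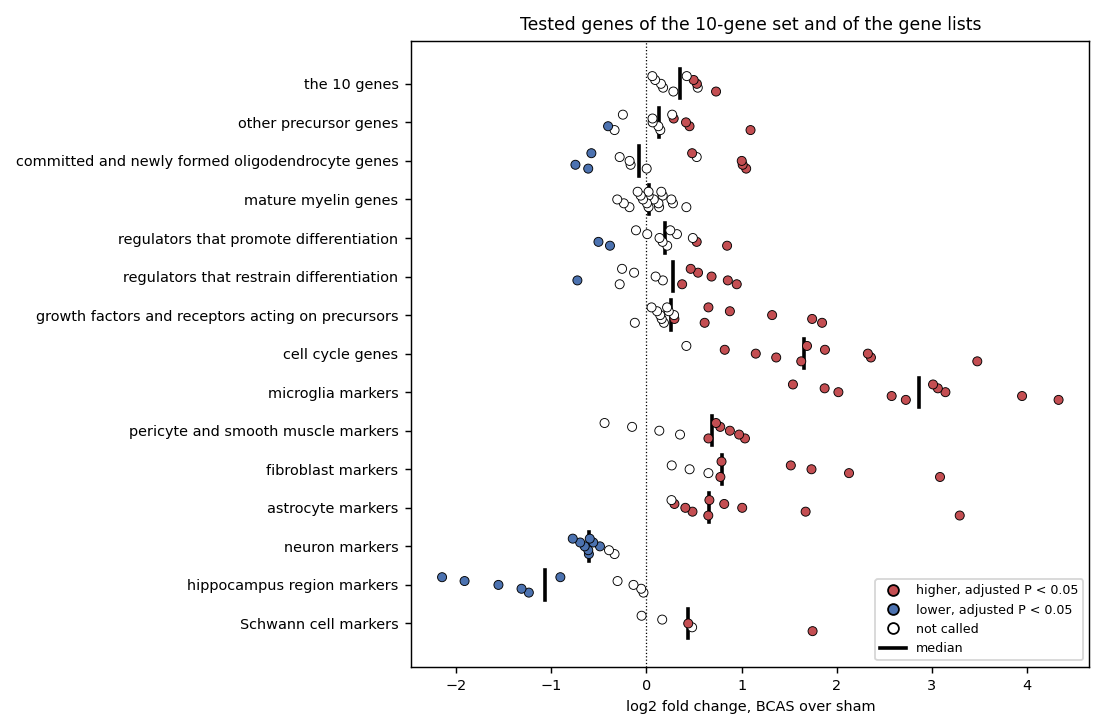
Log2 fold change of BCAS over sham mice (horizontal axis) for every tested gene of the 10-gene set and of 14 gene lists (rows), with filled points for adjusted P under 0.05 and a bar at each median. The 10 genes have a median of 0.35, mature myelin genes lie around 0 (median 0.023), and microglia markers (2.87) and neuron markers (-0.60) lie to the right and left.

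Markers of other cells were read from the same libraries. All 10 microglia markers were higher, with a summed level of 345 to 358 CPM in sham mice and 2093 to 3335 CPM in BCAS mice. Of 10 astrocyte markers 9 were higher, with 4658 to 4924 CPM in sham and 9775 to 10280 CPM in BCAS mice, and of 10 neuron markers 8 were lower (5 without BCAS mouse 1 or any 1 of the sham mice), with 7146 to 7766 CPM in sham and 4094 to 5886 CPM in BCAS mice. Fibroblast markers, which matter for Pdgfra because fibroblasts carry it too, summed to 113 to 214 CPM in sham and 235 to 422 CPM in BCAS mice, with 6 of 9 tested genes higher. Schwann cell markers, of interest for Sox10, summed to 18.1 to 22.0 CPM in sham and 26.5 to 29.4 CPM in BCAS mice, with 2 of 5 tested genes higher (1 without sham mouse 2 or 3 or any 1 of the BCAS mice). No gene of these lists was at 0 in every library. The part of each of these shifts in the values of the 10 genes was not tested.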

How the data were processed

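The authors, per the file headers and the study's methods, trimmed reads with Trim Galore, aligned them to mm10 with HISAT2 and counted them with featureCounts. The headers' command counts on exons of GENCODE genes, while the methods speak of RefSeq genes. They deposited raw counts per gene for each of 6 libraries. The headers name featureCounts 2.0.3 and the submitters' processing notes name 1.6.3. By the header's command, mates were counted separately, either strand was accepted and multiply aligned reads were dropped. A read on exons of 2 genes was assigned to neither. Symbols were matched to 54723 of the 54752 identifiers.

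Counts were filtered with edgeR's filterByExpr, scaled by TMM and compared by its quasi-likelihood test (edgeR 4.0.16, R 4.3.3), with group as the only term. Alternatives used DESeq2 1.42.0, limma-voom (limma 3.58.1), RLE factors, library totals, other filters, halved counts, a replicate block and leaving out each mouse. Intervals are unadjusted 95% intervals from the quasi-likelihood fit. Ratios added 0.5 to each count. Totals per library limit counting precision, and limits of detection cover counting error only. On simulated counts with this design, edgeR recovered 65% of genes changed by a log2 fold of 1 and 88% of those changed by 2, with 11 false calls among 18617 genes.

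The 10 genes and the lists were chosen with earlier results of these data known. From each lineage list, the text names up to 4 called genes of at least 1 CPM with the largest changes. Mbp, Mal, Myrf and Pdgfa were added after their values were seen. RefSeq promoters were used for sequence. Markers are reported by counts and summed levels. Some single genes of the lists are not reported here.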

Additional observations from a re-analysis of the deposited data

How the results depend on the processing

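The count of called genes among the 10 was 3 with edgeR, DESeq2, limma-voom, RLE factors, library totals, the filter at a mean of 10 counts, halved counts and the replicate block, 4 with every gene of at least 1 count kept, and 2 to 4 with each mouse left out. It was 0 when a log2 fold change above 1 was also required. The count of lower genes was 0 under all of these. Of 140 alternative values of single genes, 131 kept their direction and side of the threshold. The direction turned when mice were left out for Olig1 (range -0.014 to 0.145), Olig2 (-0.083 to 0.138) and Sox10 (-0.012 to 0.231), and the cause was not tested. Library totals in place of TMM moved the median over all tested genes from 0.018 to 0.095. Of 12 ratios, all kept their direction with 2 in place of 0.5 added to each count, as did the ratios added later. Replicate numbers are not stated to pair the mice, and the deviations of same-numbered libraries correlated at 0.036, -0.314 and -0.158, so the replicate block (3 genes called higher, 0 lower) is given here only. Under it Vcan, Cspg5, Sox6, Jag1 and Pdgfd lost their calls, and the higher genes went from 4 to 2 among the other precursor genes, from 6 to 4 among regulators that restrain differentiation and from 2 to 1 among Schwann cell markers. The block called 4532 genes in all, against 5819 without it.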

Other observations

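Bcas1 stayed close to the myelin gene Mbp across libraries. The log2 ratio of Bcas1 to Mbp was -4.42, -4.41 and -4.41 in sham mice 1 to 3 and -4.32, -4.30 and -4.37 in BCAS mice 1 to 3. The groups did not overlap, but the difference of 0.081 was small beside the change of either gene. Mog, another myelin gene, moved away from Bcas1 by 0.54 in the same libraries. Gpr17 and Bcas1 kept their ratio within the spread between mice, at -1.84 ± 0.056 in sham and -1.80 ± 0.24 in BCAS mice (SD, n = 3 each). The ratio of Gpr17 to Lims2, its antisense neighbor, was 1.66 ± 0.25 in sham and 2.08 ± 0.31 in BCAS mice and overlapped. Pdgfra fell against the fibroblast collagen gene Col1a2 in every BCAS mouse, from 1.53 ± 0.45 to 0.18 ± 0.37 (SD, n = 3 each). Col1a2 itself rose by 1.52 (edgeR adjusted P = 0.00366) and was 1 of 6 called among 9 tested fibroblast markers. Dcn, the most abundant of them, was not called (log2 fold change 0.27, adjusted P = 0.479), and Pdgfra was not set against it. These ratios with Mbp, Bcas1, Lims2 and Col1a2 were chosen after the values were seen, and they carry no test.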
